A study of Mus musculus with 12 samples.

Results

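Transcripts of 10 cytokine genes were followed in mouse liver: the colony-stimulating factors Csf1, Csf2 and Csf3, the IL-12 family subunits Il12a, Il12b and Il27, the cytokines Il10 and Il15, and the interferons Ifnb1 and Ifng. They were chosen by symbol, as the colony-stimulating factors, the IL-12 family and cytokines commonly measured beside them, out of 19938 genes with a probe set of a single symbol, and each had 1 such probe set. RNA of 12 livers was hybridised to Affymetrix GeneChip arrays, 1 array per liver. The first group held 4 livers of S534A mice given lipopolysaccharide (LPS, the endotoxin of Gram-negative bacteria) at 1 µg/kg. The second held 4 livers of wild-type (WT) mice given the same dose, and the third 4 livers of WT mice left untreated. All were male, with the background strain labelled C57Bl/6 and the source mice C57Bl6/J. S534A mice are homozygous for a knock-in that replaces a serine of the NF-kappaB subunit p65 (gene Rela) with alanine at its own locus, in every cell; it was targeted in PTL1 embryonic stem cells, freed of its Neo cassette with FLPe and backcrossed to C57Bl6/J. The labels state neither the animals' age nor how long after LPS the livers were taken.

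Some limits hold for every comparison. Untreated S534A livers were not analysed here, and whether a difference between genotypes predates LPS or follows it cannot be told apart. Titles of the untreated arrays follow a scheme of their own; if they were run separately, run and treatment cannot be told apart either. Nothing in the labels says that the livers of a group came from separate cages or days, and p-values measure the spread between these arrays. In whole liver, more cells of a type and more RNA per cell cannot be told apart.

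LPS is sensed by TLR4, mainly on macrophages and endothelial cells, and signals through NF-kappaB and interferon regulatory factors to cytokine genes. Colony-stimulating factors drive the production and survival of myeloid cells: Csf1 encodes M-CSF, the survival factor of macrophages including the Kupffer cells of the liver, Csf2 encodes GM-CSF, and Csf3 encodes G-CSF, which drives neutrophil production. IL-12 family cytokines are pairs of an alpha and a beta chain made by macrophages and dendritic cells: Il12a (p35) pairs with Il12b (p40) to IL-12, and Il27 (p28) pairs with Ebi3 to IL-27. IL-12 and IL-15 act on NK and T cells, which secrete interferon gamma, and IL-10 restrains macrophages.

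Promoter sequence is shown for 3 genes that span what the arrays measured: Csf1, the gene with the largest LPS difference of the 10, Ifnb1, a textbook NF-kappaB target whose probe set stayed near the array floor, and Il12b, a dim gene with a small difference. The sequences are the 250 bases before each gene's start, 5′ to 3′ on the gene's strand, from RefSeq on GRCm38.p6. Csf1 lies at chr3:107760470-107760719 on the minus strand, Ifnb1 at chr4:88522795-88523044 on the minus strand, and Il12b at chr11:44399813-44400062 on the plus strand. Capitals mark matches to the kappaB consensus.
Csf1: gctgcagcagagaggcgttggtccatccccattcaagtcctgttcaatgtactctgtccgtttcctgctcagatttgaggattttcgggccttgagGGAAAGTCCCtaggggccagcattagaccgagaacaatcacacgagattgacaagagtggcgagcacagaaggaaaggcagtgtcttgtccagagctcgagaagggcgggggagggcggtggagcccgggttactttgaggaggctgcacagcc
Ifnb1: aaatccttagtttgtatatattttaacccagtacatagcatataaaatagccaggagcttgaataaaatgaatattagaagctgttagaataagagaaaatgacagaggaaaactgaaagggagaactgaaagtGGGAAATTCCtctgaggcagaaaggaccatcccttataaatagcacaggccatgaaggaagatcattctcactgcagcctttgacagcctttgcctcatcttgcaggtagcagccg
Il12b: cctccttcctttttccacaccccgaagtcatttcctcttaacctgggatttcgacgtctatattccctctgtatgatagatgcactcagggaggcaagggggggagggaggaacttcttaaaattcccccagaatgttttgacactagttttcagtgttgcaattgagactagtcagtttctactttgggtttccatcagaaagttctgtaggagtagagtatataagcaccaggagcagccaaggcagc

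Promoters were matched for 6 of the 10 genes, Csf1, Csf2, Il12a (with 2 start sites), Il12b, Ifnb1 and Ifng; Csf3, Il10, Il15 and Il27 were not matched. A total of 3 motifs were searched on both strands of these windows. The kappaB consensus, the binding sequence of NF-kappaB dimers, matched once in Csf1, 154 to 145 bases before the start (chr3:107760614-107760623), and once in Ifnb1, 116 to 107 bases before the start (chr4:88522901-88522910). It was held by 7.25% of 32851 promoters of the same length. The core of the interferon-stimulated response element was in none of the windows of the 6 genes and in 2.98% of all promoters. The gamma-activated site core TTCNNNGAA, which STAT dimers bind, matched once, in Ifng, 249 to 241 bases before the start, and was in 7.02% of all promoters. No matches overlapped. These are matches of letters in a window, not measured binding, and a window without a match to these fixed letters may still hold a site.

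Values are log2 signals as deposited, made by the authors with RMA, and a difference of 1 is a doubling. Probe sets differ in how brightly they report the same amount of RNA, so each gene is compared with itself across groups. Alb, the hepatocyte marker, and the other hepatocyte markers were bright, with 9 measured markers averaging 13.36 to 13.42 per array in S534A LPS, 13.38 to 13.45 in WT LPS and 13.43 to 13.53 in WT untreated livers. Arrays of a group correlated at 0.983 to 0.996 over all probe sets. Transcripts of exocrine pancreas were carried by 3 arrays: Cpa1, a pancreatic carboxypeptidase, read 10.76 on S534A LPS replicate 3, 10.10 on WT LPS replicate 2 and 7.54 on WT LPS replicate 3, and between 5.54 and 6.39 on the other arrays. The untreated arrays split by a clock gene, with Arntl at 9.03 and 9.08 on replicates 1 and 3 and 6.29 and 6.20 on replicates 2 and 4. Arntl also varied among LPS arrays, at 8.83 on WT LPS replicate 1, 7.37 to 7.52 on the other WT LPS arrays and 7.42 to 8.61 in S534A LPS. Where a call of one of the 10 genes ends without the 3 arrays with pancreas transcripts, or without untreated replicates 1 and 3 or 2 and 4, both values are given.

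The array floor was set from 1207 olfactory, vomeronasal and trace amine receptor genes, genes of sensory neurons of which few are known to be used in liver. The 95th percentile of their group means was 5.75 in S534A LPS, 5.79 in WT LPS and 5.64 in WT untreated livers. Csf2, Il12a, Il12b and Ifnb1, 4 of the 10 genes, stayed at or under it in all 3 groups. Csf1, Il27, Il15 and Ifng, also 4, were above it in all 3 groups. Il10 was under the floor in WT untreated livers alone. Csf3 sat on the line, at 5.75 in S534A LPS, 5.82 in WT LPS and 5.64 in WT untreated livers. A probe set near the floor gives little information on whether its transcript changed, and a small difference there is small in signal, not necessarily in RNA.

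**Figure D1:**
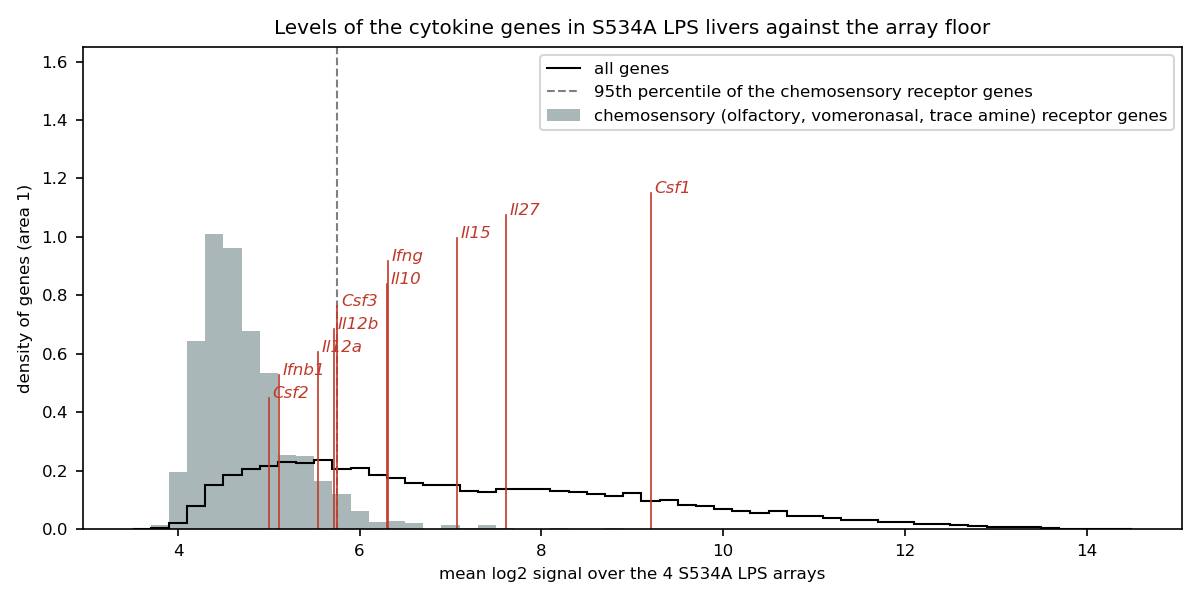
Distribution of mean log2 signal over the 4 S534A LPS arrays, for all 19938 genes (black line) and 1207 chemosensory receptor genes (grey bars), as density on the vertical axis; red lines mark the 10 cytokine genes and the dashed line the floor at 5.75. Csf1 stands far right of the receptor genes at 9.21, and Csf2, Il12a, Il12b and Ifnb1 lie left of the dashed line.

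LPS was compared with no treatment in WT livers first. Of the 10 genes, 4 rose (Csf1, Il10, Il15 and Il12b), none fell and 6 did not pass, at an adjusted p under 0.05 in limma over all genes; 9.34% of all genes rose by the same rule and 15.6% fell. The median difference of the 10 was 0.19, beside 0.02 over all genes. In 3 of them all WT LPS values lay above all WT untreated values, beside 9.78% of all genes. In S534A LPS against WT untreated livers, 5 rose (the same 4 and Il27), none fell and 5 did not pass, beside 11% of all genes higher and 16% lower. Their median difference was 0.30, beside 0.03 over all genes, and all 5 had groups without overlap, beside 13.8% of all genes. The 2 comparisons share the 4 untreated arrays, so they are not independent of each other. Between genotypes under LPS, none of the 10 passed in limma, beside 0.166% of all genes higher and 0.00502% lower; 3 (Csf1, Il15 and Il10) had an unadjusted p under 0.05, all higher in S534A LPS, beside 4.21% of all genes higher at that level.

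**Figure D2:**
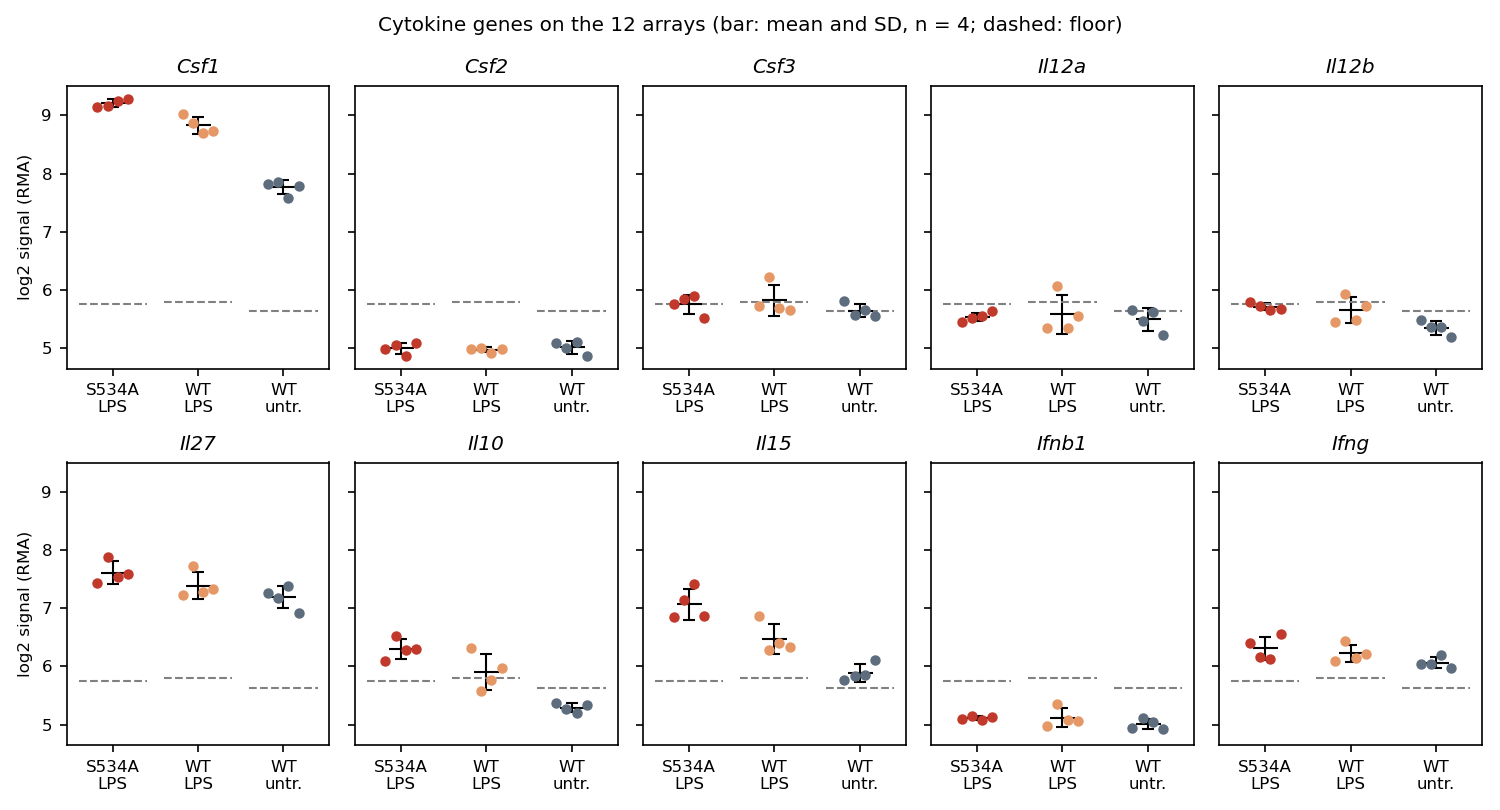
Log2 signal (vertical axis) of the 10 cytokine genes on the 12 arrays, 1 panel per gene, with dots for single arrays, bars for the mean and SD of 4 and a dashed line for the floor of each group. Csf1, Il10 and Il15 step up across both LPS groups, while the means of Csf2, Il12a and Ifnb1 stay under the floor.

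Among the colony-stimulating factors, Csf1 rose. It read 9.14, 9.16, 9.24 and 9.28 in S534A LPS livers, 9.02, 8.86, 8.70 and 8.73 in WT LPS livers, and 7.83, 7.85, 7.59 and 7.78 in WT untreated livers. The 3 groups did not overlap, with every S534A LPS array above every WT LPS array and every WT LPS array above every untreated one. The WT LPS mean of 8.83 ± 0.15 against 7.76 ± 0.12 in untreated livers (SD, n = 4 each) was a difference of 1.07 ± 0.08 (SE), or 2.09-fold, with an adjusted p of 1.07e-06 in limma. S534A LPS livers, at 9.21 ± 0.07, were 1.44 ± 0.08 above untreated livers (2.72-fold, adjusted p = 3.82e-08). The genotypes differed by 0.38 ± 0.08 under LPS (95% interval 0.20 to 0.56, 1.30-fold), and limma's adjusted p over all genes was 0.126, which did not pass. Csf1 was the 1 gene of the 10 with no overlap between genotypes, beside 3.25% of all genes with every S534A LPS array higher.

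The call, more than the size of that difference, depended on the arrays used. Without WT LPS replicate 1, the highest of its group for Csf1, it was 0.44 with an adjusted p of 0.0271 in limma. Without the 3 arrays carrying pancreas transcripts it was 0.32 with an adjusted p of 0.881.

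Csf2 did not pass in any comparison. It lay between 4.87 and 5.10 in S534A LPS, between 4.92 and 5.00 in WT LPS and between 4.87 and 5.11 in WT untreated livers, with all groups overlapping under the floor. WT LPS minus WT untreated was -0.04 (95% interval -0.19 to 0.11). Csf3 read 5.75, 5.84, 5.90 and 5.53 in S534A LPS, 5.72, 6.22, 5.69 and 5.66 in WT LPS, and 5.80, 5.57, 5.65 and 5.56 in WT untreated livers. Only WT LPS replicate 2 stood above the rest, and that array also had the brightest chemosensory receptor genes, with a median of 4.69. The difference between WT LPS and untreated livers was 0.18 (interval -0.09 to 0.45, adjusted p = 0.339 in limma).

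In the IL-12 family, the 3 cytokine chains were dim or changed little. Il12b, the p40 chain shared by IL-12 and IL-23, read 5.79, 5.73, 5.66 and 5.67 in S534A LPS, 5.45, 5.92, 5.49 and 5.73 in WT LPS, and 5.49, 5.36, 5.36 and 5.19 in WT untreated livers. All S534A LPS values lay above all untreated values, and the WT LPS values overlapped both groups. The difference from untreated livers was 0.36 ± 0.10 in S534A LPS (adjusted p = 0.0163 in limma) and 0.30 ± 0.10 in WT LPS (adjusted p = 0.0473). Both rest on values at the floor. The median of the chemosensory receptor genes was higher on every LPS array (4.60 to 4.69) than on every untreated array (4.51 to 4.59). With arrays centred on that median, the WT difference was 0.23 with an adjusted p of 0.0772 in limma, and the S534A call was kept. The WT call ended when any one of WT LPS replicates 2 and 4, WT untreated replicates 2, 3 and 4 or the S534A LPS arrays was left out (adjusted p 0.0592 to 0.126, and a difference of 0.21 without WT LPS replicate 2). It also ended without the 3 arrays carrying pancreas transcripts (0.24, adjusted p = 0.165). Without untreated replicates 2 and 4 the difference was 0.29 in S534A LPS (adjusted p = 0.123) and 0.22 in WT LPS (adjusted p = 0.259).

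Il12a, the p35 chain that makes IL-12 with p40, did not pass in any comparison. It ran from 5.46 to 5.63 in S534A LPS, 5.34 to 6.07 in WT LPS and 5.22 to 5.66 in WT untreated livers, and the value of 6.07 was again WT LPS replicate 2. WT LPS minus untreated was 0.09 (interval -0.23 to 0.40), and without that array it was -0.08.

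Il27 read 7.43, 7.89, 7.53 and 7.59 in S534A LPS, 7.22, 7.73, 7.28 and 7.34 in WT LPS, and 7.27, 7.18, 7.38 and 6.93 in WT untreated livers. S534A LPS arrays lay above all untreated arrays, while WT LPS arrays overlapped them. S534A LPS livers were higher than untreated livers by 0.42 ± 0.13 (1.34-fold, adjusted p = 0.0304 in limma). That call ended without either of untreated replicates 2 and 4 or either of S534A LPS replicates 2 and 4 (0.33 to 0.43, adjusted p 0.0602 to 0.0978), and without both of the untreated ones the difference was 0.29 with an adjusted p of 0.226. WT LPS livers differed from untreated livers by 0.20 ± 0.13 (adjusted p = 0.300), and by 0.09 without WT LPS replicate 2. The genotype difference of 0.22 had a 95% interval of -0.07 to 0.50, which holds both 0 and a difference as large as the one from untreated livers.

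Ebi3, the beta chain that pairs with Il27, rose in both LPS groups. It averaged 7.27 ± 0.14 in S534A LPS, 7.21 ± 0.13 in WT LPS and 6.33 ± 0.17 in WT untreated livers, 0.93 ± 0.10 and 0.87 ± 0.10 above untreated livers for S534A and WT (adjusted p 1.58e-05 and 3.64e-05 in limma). Il23a, the p19 chain that pairs with p40 to IL-23, averaged 5.37 ± 0.12, 5.35 ± 0.18 and 5.28 ± 0.17 in S534A LPS, WT LPS and WT untreated livers and did not pass. Of 13 listed partner subunits and related cytokines, 3 rose and 1 fell in WT LPS against untreated livers (median 0.07). In S534A LPS against untreated livers 3 rose and none fell (median 0.09). Over all genes, 9.34% rose and 15.6% fell in WT LPS, and 11% rose and 16% fell in S534A LPS. Il34, the other ligand of the Csf1 receptor, was 0.49 ± 0.08 above untreated livers in WT LPS, and Il7, a lymphocyte growth factor, 0.57 ± 0.09; Flt3l, a growth factor of dendritic cell precursors, fell by 0.31 ± 0.08. Il7 lay under the floor in all 3 groups, at 5.18 in S534A LPS, 5.03 in WT LPS and 4.46 in WT untreated livers. Flt3l lost its call without the pancreas arrays (-0.22, adjusted p = 0.172) and without untreated replicates 2 and 4 (-0.29, adjusted p = 0.0555).

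Il10, which restrains macrophage cytokine production, rose in both LPS groups. It read 6.09, 6.52, 6.29 and 6.31 in S534A LPS, 6.32, 5.58, 5.76 and 5.97 in WT LPS, and 5.37, 5.26, 5.20 and 5.34 in WT untreated livers. Both LPS groups lay wholly above the untreated arrays and overlapped each other. The untreated mean of 5.29 was under the floor of 5.64, so these are differences in signal and no fold of the RNA is given. WT LPS livers were 0.61 ± 0.14 above untreated livers (adjusted p = 0.00487 in limma), and S534A LPS livers 1.01 ± 0.14 (adjusted p = 0.000105). The genotypes differed by 0.40 ± 0.14 (interval 0.10 to 0.69, adjusted p = 0.508). Without WT LPS replicate 1 that difference was 0.53 (adjusted p = 0.0581), and without the 3 arrays carrying pancreas transcripts it was 0.16 (adjusted p = 0.926).

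Il15, a growth and survival factor of NK cells and memory CD8 T cells, read 6.85, 7.14, 7.41 and 6.87 in S534A LPS, 6.86, 6.29, 6.40 and 6.34 in WT LPS, and 5.76, 5.83, 5.85 and 6.11 in WT untreated livers. Every LPS array was above every untreated array, and WT LPS replicate 1 reached the low end of the S534A LPS arrays while the other 3 stayed below all of them. WT LPS livers were 0.58 ± 0.15 above untreated livers (adjusted p = 0.0106 in limma), and S534A LPS livers 1.18 ± 0.15 (2.26-fold, adjusted p = 5.49e-05). Without untreated replicates 1 and 3 the WT difference was 0.50 with an adjusted p of 0.0735. The genotypes differed by 0.60 ± 0.15 under LPS (interval 0.28 to 0.91, 1.51-fold), with an adjusted p of 0.183. Without WT LPS replicate 1 that difference was 0.73 with an adjusted p of 0.0312, and without the 3 arrays carrying pancreas transcripts it was 0.35 with an adjusted p of 0.900.

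**Figure D3:**
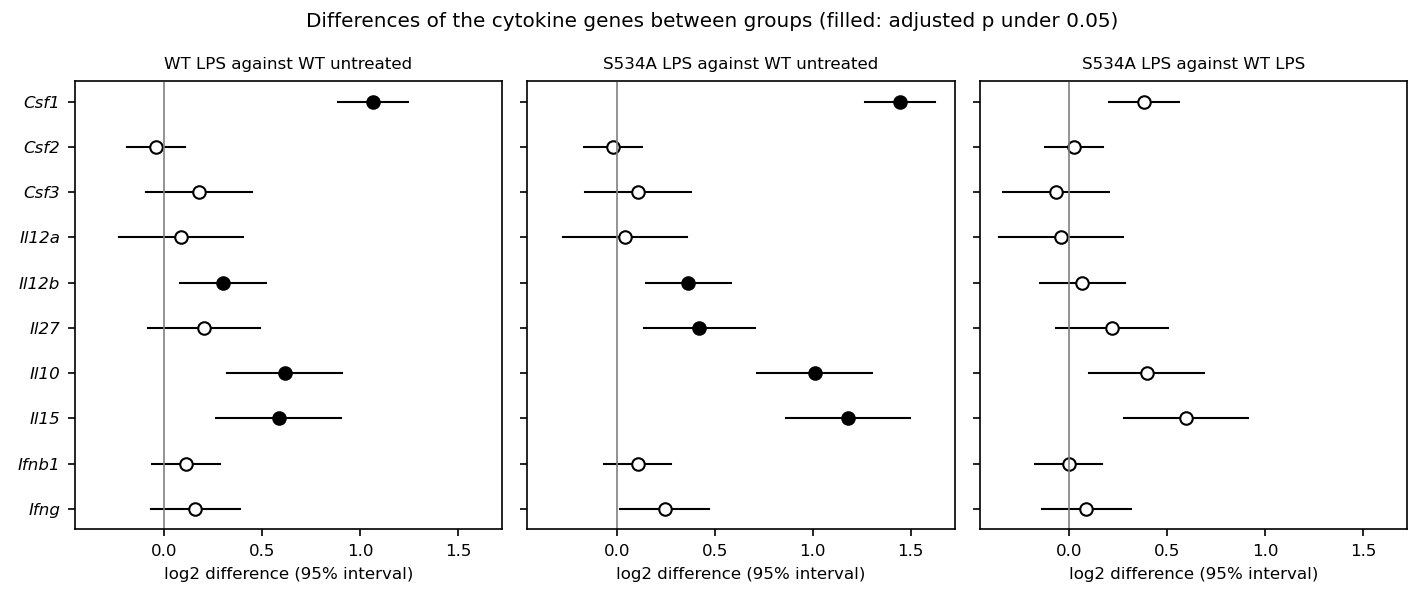
Log2 difference (horizontal axis) with its 95% interval for the 10 cytokine genes in 3 panels, for WT LPS and for S534A LPS livers each against WT untreated livers, and then for the genotypes under LPS; filled symbols have an adjusted p under 0.05. Csf1 has the largest difference from untreated livers in both LPS groups, and no symbol is filled in the comparison of genotypes.

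Neither interferon gene passed in any comparison. Ifnb1, the type I interferon induced through TLR4, ran from 5.08 to 5.15 in S534A LPS, 4.98 to 5.36 in WT LPS and 4.93 to 5.12 in WT untreated livers, all under the floor and overlapping. WT LPS minus untreated was 0.11 (interval -0.06 to 0.28, adjusted p = 0.357 in limma). Ifng read 6.40, 6.16, 6.12 and 6.56 in S534A LPS, 6.10, 6.44, 6.14 and 6.21 in WT LPS, and 6.05, 6.04, 6.20 and 5.97 in WT untreated livers, with all 3 groups overlapping. It was 0.24 ± 0.11 (SE) above untreated livers in S534A LPS (adjusted p = 0.112) and 0.16 ± 0.11 in WT LPS (adjusted p = 0.316). Without the 3 arrays carrying pancreas transcripts, the S534A difference was 0.31 with an adjusted p of 0.0482.

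Lists of genes that interferons induce were read in the same livers. Which interferon raised them, or whether LPS did so without one, was not tested. All 12 measured of 14 listed type I interferon targets rose in both LPS groups against untreated livers, with medians of 4.47 in S534A LPS and 4.03 in WT LPS. For this list and the next, the shares over all genes were 11% higher in S534A LPS and 9.34% higher in WT LPS. Ifit1, an antiviral RNA-binding protein, was 5.25 ± 0.11 higher in WT LPS than in untreated livers. Of 12 measured of 15 listed interferon gamma targets, 11 rose in both, with medians of 2.28 in S534A LPS and 2.12 in WT LPS. The exception was Ciita, the activator of MHC class II genes (0.12 in S534A LPS and 0.20 in WT LPS, neither of which passed). Cxcl9, a chemokine that draws T cells, was 4.14 ± 0.12 higher in WT LPS than in untreated livers. Between genotypes 2 of these 12 passed, beside 0.166% of all genes: Socs1, a feedback inhibitor of cytokine receptors, was 0.86 ± 0.07 higher in S534A LPS (adjusted p = 0.000906 in limma), and Cd274, the checkpoint ligand PD-L1, was 0.91 ± 0.11 higher (adjusted p = 0.00386). Without the 3 arrays carrying pancreas transcripts, Socs1 was 0.94 higher with an adjusted p of 0.0471 and Cd274 0.83 higher with an adjusted p of 0.280.

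**Figure D4:**
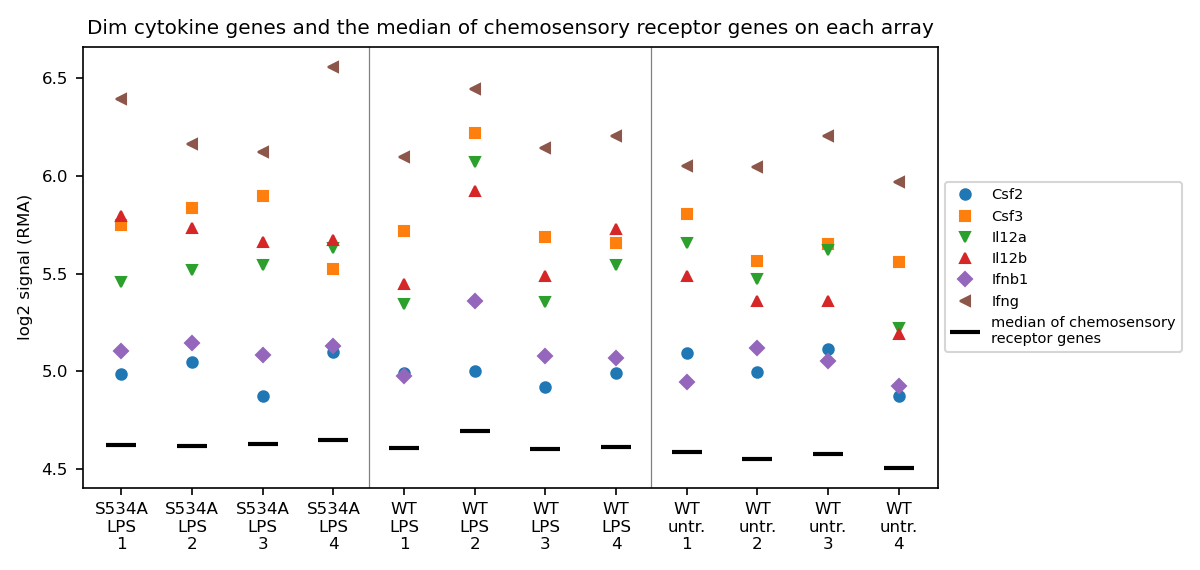
Log2 signal (vertical axis) of Csf2, Csf3, Il12a, Il12b, Ifnb1 and Ifng on each of the 12 arrays, with the median of the chemosensory receptor genes of each array as a black dash. WT LPS replicate 2 carries the top value of Csf3 (6.22) and Il12a (6.07) and has the highest receptor-gene median (4.69).

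WT LPS replicate 2 was the highest array of its group for 7 of the 10 genes (Csf2, Csf3, Il12a, Il12b, Il27, Ifnb1 and Ifng) and the lowest for Il10 and Il15. It carried pancreas transcripts and had the lowest upper quartile of all probe sets, 8.04. WT LPS replicate 1 was the highest of its group for the other 3 genes, Csf1, Il10 and Il15. WT untreated replicate 4 was the lowest array of its group for the same 7 genes that WT LPS replicate 2 led, and the highest for Il15. Its median of the chemosensory receptor genes, 4.51, was the lowest of all arrays. For those 7 genes, WT LPS replicate 2 and WT untreated replicate 4 both raised WT LPS minus untreated. The part of these arrays' composition in the values was not tested.

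Receptors decide which cells can answer these cytokines. Of 17 measured of 18 listed receptor genes, 8 rose and 1 fell in each LPS group against untreated livers, and none passed between genotypes. Over all genes, 9.34% rose and 15.6% fell in WT LPS, and 11% rose and 16% fell in S534A LPS. Between genotypes 0.166% of all genes were higher and 0.00502% lower. Csf3r, the G-CSF receptor of neutrophils, averaged 7.66 ± 0.14 in S534A LPS, 7.22 ± 0.20 in WT LPS and 6.03 ± 0.08 in WT untreated livers. That was 3.11-fold above untreated livers in S534A LPS and 2.28-fold in WT LPS (adjusted p 6.49e-08 and 1.99e-06 in limma), with a genotype difference of 0.45 ± 0.10 (adjusted p = 0.131, and 0.53 with an adjusted p of 0.0204 without WT LPS replicate 1). Neutrophil markers moved with it: 9 of 11 measured rose in each LPS group, and their array means ran from 6.91 to 7.23 in S534A LPS, 6.55 to 6.83 in WT LPS and 5.39 to 5.56 in WT untreated livers; 2 of the 11, Retnlg and S100a9, were higher in S534A LPS than in WT LPS livers, beside 0.166% of all genes. Neither passed without the 3 arrays carrying pancreas transcripts (0.63, adjusted p = 0.296, and 0.55, adjusted p = 0.452), and S100a9 did not pass without WT LPS replicate 2 (0.53, adjusted p = 0.0659). The part of neutrophil number in the Csf3r values was not tested.

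The Csf1 receptor went the other way from its ligand. Csf1r, the marker of macrophages, averaged 9.05 ± 0.08 in S534A LPS, 9.08 ± 0.25 in WT LPS and 9.72 ± 0.20 in WT untreated livers; it fell by 0.67 ± 0.12 in S534A LPS and fell by 0.64 ± 0.12 in WT LPS (adjusted p 0.00108 and 0.00182 in limma). Among 12 markers of Kupffer cells and macrophages, 5 fell and 1 rose in S534A LPS, and 4 fell and 1 rose in WT LPS, against untreated livers. Over all genes, 16% fell and 11% rose in S534A LPS, and 15.6% fell and 9.34% rose in WT LPS. Array means of the 12 ran from 8.71 to 8.89, 8.42 to 9.01 and 8.85 to 9.30 in S534A LPS, WT LPS and WT untreated livers. Monocyte markers ran the other way, at 7.64 to 7.74 in S534A LPS, 7.40 to 7.83 in WT LPS and 6.75 to 6.82 in WT untreated livers. Clec4f, a defining marker of mouse Kupffer cells, fell by 0.76 ± 0.11 in WT LPS livers, and the monocyte marker Vcan was 1.54 ± 0.11 higher. The Kupffer cell and macrophage list had a median difference of -0.25 in WT LPS and -0.27 in S534A LPS. Without the 3 arrays carrying pancreas transcripts these medians were -0.02 and -0.28. In WT LPS 4 of the 12 then fell and 2 rose, among them Timd4, another Kupffer cell marker (0.58, adjusted p = 0.0184 in limma). The part of Kupffer cells, macrophages and monocytes in Csf1, Il10 and Il12b was not tested.

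The GM-CSF receptor chains Csf2rb and Csf2ra rose although Csf2 did not pass. In WT LPS against untreated livers Csf2rb was 0.58 ± 0.08 higher and Csf2ra 0.30 ± 0.08, and in S534A LPS the differences were 0.90 and 0.27. Csf2rb2, the related beta chain of the mouse IL-3 receptor, was 0.86 ± 0.07 higher in WT LPS and 1.07 higher in S534A LPS. Csf2ra lost its call in both without untreated replicates 2 and 4 (0.20 in S534A LPS, adjusted p = 0.176, and 0.24 in WT LPS, adjusted p = 0.116), and in WT LPS without the pancreas arrays (0.27, adjusted p = 0.0848). Among the IL-12 family receptors, Il12rb2 was 0.38 ± 0.06 higher in WT LPS and Il6st, the gp130 chain of the IL-27 receptor, 0.50 ± 0.06 higher, while Il12rb1 (0.13, adjusted p = 0.449 in limma) and Il27ra, the chain specific to the IL-27 receptor (0.01, adjusted p = 0.929), did not pass. Il12rb2 averaged 5.64 in S534A LPS, 5.65 in WT LPS and 5.27 in WT untreated livers, under the floor of each group. Il2rb, a chain of the IL-15 receptor, was 0.41 ± 0.08 higher and Ifngr2, a chain of the interferon gamma receptor, 0.70 ± 0.08 higher. The Il10 receptor chain Il10ra did not pass (-0.02, adjusted p = 0.942).

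Il15ra, which presents IL-15 to neighbouring cells, did not pass (0.31 ± 0.22 in WT LPS against untreated livers, adjusted p = 0.341 in limma). It read 9.73, 9.92, 9.86 and 9.86 in S534A LPS, 9.65, 9.43, 9.71 and 9.66 in WT LPS, and 8.73, 9.82, 8.85 and 9.82 in WT untreated livers. Untreated replicates 1 and 3 stood apart from 2 and 4, the same split as for Arntl. Replicates 1 and 3 were low, while replicates 2 and 4 were level with the S534A LPS arrays and above every WT LPS array. Without replicates 2 and 4, Il15ra was 1.06 above untreated livers in S534A LPS and 0.82 in WT LPS (adjusted p 6.97e-06 and 5.94e-05).

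**Figure D5:**
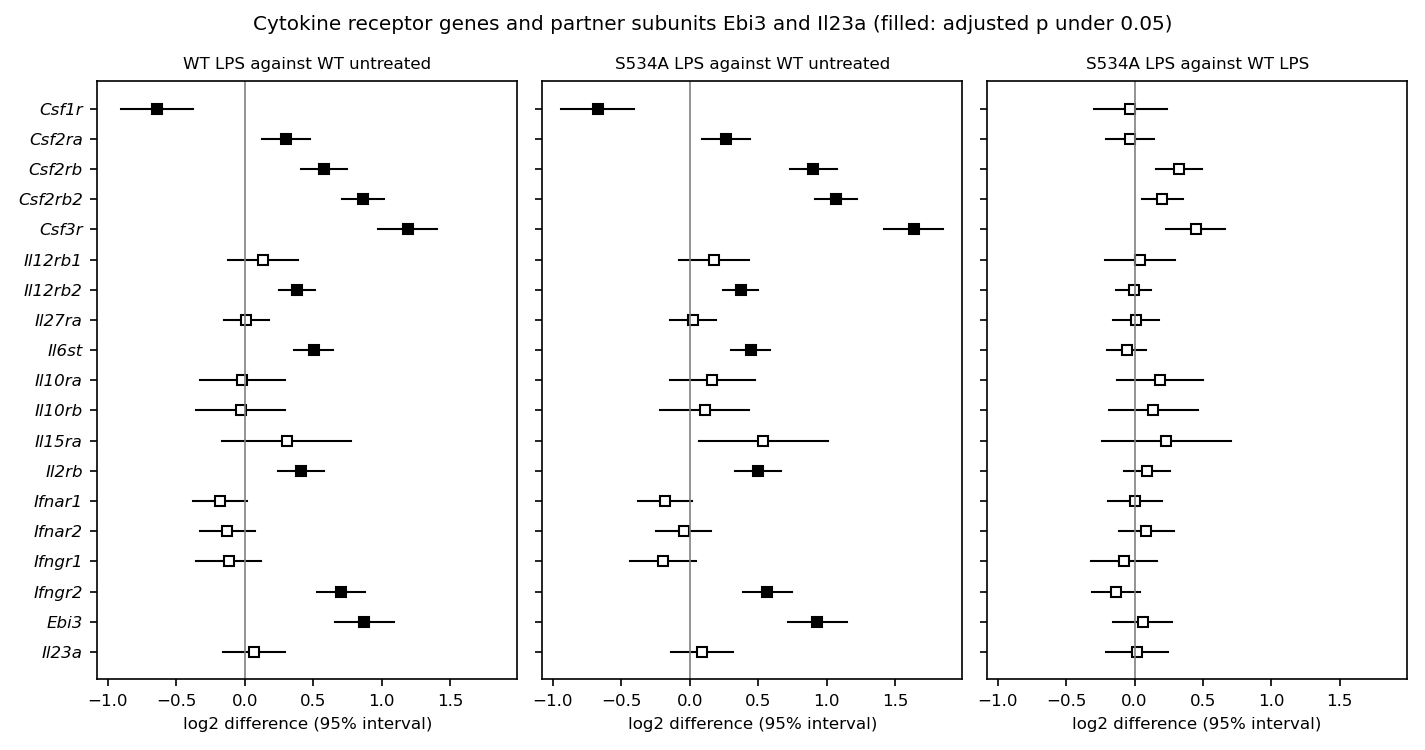
Log2 difference (horizontal axis) with its 95% interval for 17 receptor genes and the subunits Ebi3 and Il23a in 3 panels, for WT LPS and for S534A LPS livers each against WT untreated livers, and then for the genotypes under LPS; filled symbols have an adjusted p under 0.05. Csf3r has the largest rise (2.28-fold in WT LPS) and Csf1r is the only filled symbol left of 0.

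Signal carriers downstream of these receptors were mixed. Of 8 measured of 10 listed Janus kinases and STATs, 5 rose and 1 fell in each LPS group against untreated livers, with medians of 0.51 in S534A LPS and 0.44 in WT LPS. In WT LPS livers Stat3, which IL-10 and IL-27 signal through, was 1.38 ± 0.06 higher and Jak2, which the IL-12, GM-CSF and interferon gamma receptors use, 1.24 ± 0.11 higher. Stat5b, which GM-CSF and IL-15 signal through, fell by 0.46, while Stat4, the STAT of the IL-12 receptor (-0.15), and Tyk2, a kinase of the IL-12 and type I interferon receptors (-0.07), did not pass. Of 15 transcription factors known to act on the cytokine genes, 8 rose and none fell in WT LPS, and 8 rose and 2 fell in S534A LPS. For both lists, the shares over all genes were 9.34% higher and 15.6% lower in WT LPS, and 11% and 16% in S534A LPS. Irf7, which amplifies type I interferon genes, was 2.58 ± 0.11 higher in WT LPS livers and Irf8, needed for Il12b in macrophages, 1.22 ± 0.07 higher.

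NK and T cells make interferon gamma and answer to IL-15, and their markers were read beside Ifng and Il15. Of 19 measured of 20, 6 rose and 1 fell in S534A LPS and 5 rose and none fell in WT LPS against untreated livers, with the chemokine Ccl5 3.76 ± 0.10 higher and Gzmb, a cytotoxic granule protease, 0.95 ± 0.14 higher in WT LPS. The list's median difference was 0.10 in S534A LPS and 0.04 in WT LPS, beside 0.03 and 0.02 over all genes. Klrb1c, Klrk1, Klrd1 and Klre1, NK receptor genes, and the T cell receptor chains Cd3e and Cd3g passed in neither. In S534A LPS against untreated livers the chain Cd3d was 0.25 higher and Cd4 0.31 lower. Cd3d lost its call without untreated replicates 1 and 3 or 2 and 4, and Cd4 without replicates 1 and 3 or the pancreas arrays. Ncr1, another NK receptor gene, read 5.27 to 5.58 in S534A LPS, 5.36 to 5.46 in WT LPS and 5.02 to 5.21 in untreated livers. All of these lay under the floor, with every LPS array above every untreated one. Array means of the list include Ccl5. They ran from 6.02 to 6.15 in S534A LPS, 5.98 to 6.07 in WT LPS and 5.67 to 5.74 in WT untreated livers. Dendritic cell markers, a source of Il12b and Il27, ran from 6.27 to 6.40, 6.26 to 6.39 and 6.18 to 6.31 in S534A LPS, WT LPS and WT untreated livers, with 1 of 10 higher and 1 lower in each LPS group, beside 11% of all genes higher and 16% lower in S534A LPS and 9.34% and 15.6% in WT LPS. The part of these cells in the cytokine values was not tested.

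For the 5 genes that passed, the genes with the most similar signals over the 12 arrays were found by the root mean square difference of their values after each gene's mean was removed. Csf1 was closest to Tcirg1 (0.088), Armc8 (0.091) and Mov10 (0.11), and Il10 to Efcab14 (0.11), Slc10a7 (0.12) and Bloc1s6 (0.13). Il15 was closest to Nsmaf (0.14), Lrch1 (0.16) and Tlk2 (0.16), and Il27 to Osm (0.092), Trim67 (0.098) and Tcl1b1 (0.10). Osm read 4.69 to 5.56 over the 12 arrays, under the floor of each group. Il12b, whose own SD over the arrays was 0.21, was closest to Rab39b (0.066), Cntnap3 (0.071) and S100a5 (0.072). The arrays share the LPS contrast, so these distances describe the 12 arrays and carry no test.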

How the data were processed

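The values are log2 signals that the authors deposited; per the submitters' processing notes they were made with RMA (version not stated there), and array signal has no read depth, so the number of arrays (4 per group) limits precision. Of 35556 probe sets, 21789 carried 1 gene symbol, 1621 several and 12146 none. The brightest probe set of each symbol was kept, which left 19938 genes, and symbols were updated through Entrez for 21698 probe sets. Groups came from the labels, and replicates are numbered within each group. A model of the 3 groups over all 12 arrays was fitted per gene in limma (version 3.58.1, R version 4.3.3; lmFit, then eBayes; 9 residual degrees of freedom; two-sided). The threshold for a call was 0.05 on p-values adjusted by Benjamini-Hochberg across the 19938 genes, with no filter on dim genes. The test was checked on simulated data. The 10 genes, and the 17 gene and marker lists (184 of 200 symbols measured), were chosen with earlier results of these data known. From each list, the text names genes among the 4 with the smallest p in the comparison described, plus Ebi3 and Il23a. Other receptor genes, Cpa1, Arntl, Alb, Socs1, Cd274, Ciita, Stat5b, Stat4 and Tyk2 were named after their values were seen. So were Timd4, Cd3d, Cd4, Ncr1 and the NK and T cell markers that did not pass. Likeness used the 3 nearest genes for each gene that passed. Alternatives were each array left out, other floors, a dim-gene filter, probe set choices, eBayes settings, array weights, normalisations, a fit of 2 groups and a replicate block; leaving out the 3 arrays with pancreas transcripts or 2 untreated arrays, and centring on chemosensory receptor genes, were added after seeing the data.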

Additional observations from a re-analysis of the deposited data

Results flagged for a closer look

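Within the 30 sets of 4 arrays (10 genes in 3 groups), 2 held an array far from the other 3 by Dixon's test, where chance gives about 1 in 20. Csf3 read 6.22 on WT LPS replicate 2, against 5.66 to 5.72 on the other WT LPS arrays. Csf2 read 4.92 on WT LPS replicate 3, against 4.99 to 5.00 on the other WT LPS arrays, a gap that is small in signal and under the floor.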

How the results depend on the processing

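Over 25 alternatives Csf1 and Il10 kept their calls in both LPS groups against untreated livers, and Il15 in S534A LPS. Il12b in WT LPS lost its call in 16 of 24 (adjusted p 0.0204 to 0.259 in limma), Il27 in S534A LPS in 5, and Il15 in WT LPS and Il12b in S534A LPS in 1 each. The dim-gene filter kept 11964 genes and dropped Csf2, Csf3, Il12a, Il12b and Ifnb1; the other 5 passed it.

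Between genotypes, 0 to 2 of the 10 genes and 9 to 121 of all genes passed when 1 array was left out, against 0 and 34 with all arrays. The count of all genes was 17 with a replicate block, 476 with array weights, 19 over every probe set, 1 without the 3 arrays with pancreas transcripts, and 52 and 72 without untreated replicates 1 and 3 or 2 and 4. Array weights called 2 of the 10, Csf1 (0.44, adjusted p = 0.00589) and Il15 (0.66, adjusted p = 0.0128). Without the pancreas arrays 3227 of all genes passed in WT LPS against untreated livers, against 4983. Without untreated replicates 2 and 4, 3 of the 10 passed in S534A LPS against untreated livers, against 5. With the floor at the 90th percentile of receptor genes 2, 2 and 3 of the 10 were near it in S534A LPS, WT LPS and WT untreated livers, against 5, 4 and 5, and with the 25th percentile of all genes 2 and 2 in the LPS groups. The cause was not tested for any of these.

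Replicate numbers did not pair the arrays: deviations of same-numbered arrays correlated at -0.27 to 0.21, and of 8 arrays per comparison 1, 2 and 0 correlated best with their own number in WT LPS against untreated, S534A LPS against WT LPS and S534A LPS against untreated livers. With the block Il12b in WT LPS was 0.30 with an adjusted p of 0.0713, and no other call of the 10 changed.

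Differences that changed sign were all uncalled and near the floor. For Il12a, WT LPS minus untreated was -0.079 to 0.16 with 1 array left out, -0.13 with array weights, -0.049 without the pancreas arrays and -0.060 without untreated replicates 2 and 4. S534A minus WT LPS was -0.12 to 0.12, 0.094 and 0.090 under the first 3 of these, and S534A LPS minus untreated was -0.047 to 0.10 with 1 array left out, -0.040 with array weights, -0.10 without untreated replicates 2 and 4 and -0.031 centred on receptor genes. For Csf2, WT LPS minus untreated was 0.042 without untreated replicates 1 and 3, S534A minus WT LPS was -0.0092 to 0.066 with 1 array left out, and S534A LPS minus untreated was -0.069 to 0.023 with 1 array left out, 0.023 without the pancreas arrays and 0.065 without untreated replicates 1 and 3. S534A minus WT LPS was -0.12 to 0.065, 0.067 and 0.015 for Csf3 and -0.052 to 0.075, 0.047 and 0.10 for Ifnb1 with 1 array left out, with array weights and without the pancreas arrays.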
